A study of Mus musculus and Sus scrofa with 30 samples.

Results

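The genes described here are 9 that encode enzymes of the citric acid cycle: Cs, Idh3a, Idh3b, Idh3g, Ogdh, Suclg1, Sucla2, Fh1 and Mdh2. They were chosen by gene symbol, ignoring case, with FH as the pig name of Fh1, and the rule itself uses no measured value. Each symbol was found once per table, so the members were 9 of 24843 mouse genes and 9 of 34307 pig genes. All 9 passed the filter on low values in both tables, a mean of at least 10 normalized counts over 15 libraries.

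RNA was sequenced from 2 cell systems on day 5 of adipogenic induction, in a series whose title concerns raising fat formation for food production. The mouse system was 3T3-L1, a clonal line of embryonic fibroblasts that can become fat cells. The porcine system was dedifferentiated fat (DFAT) cells, mature fat cells of subcutaneous tissue that lost their lipid in culture and began to divide again. With 5 groups of 3 libraries in each system, there were 30 libraries. The groups were DMSO vehicle, dicoumarol, a blocker of vitamin K recycling and of the enzyme NQO1, magnolol, a plant biphenol, the 2 given together, here called the combination, and rosiglitazone, a drug that activates the nuclear receptor PPARγ. All groups of a system, vehicle included, received the same induction mix. For 3T3-L1 it held insulin (0.75 µg/mL), dexamethasone (75 nM) and IBMX (37.5 µM) with 10% serum. For DFAT it held dexamethasone (0.5 µM), IBMX (12.5 µM), biotin (20 µM) and pantothenate (10 µM) with 2% serum. Insulin is named only for the 3T3-L1 mix. No group without induction was analysed here. Neither the compounds' doses nor the number of pigs behind the DFAT cells were stated. Nothing states that the libraries came from separate cultures, so the p-values measure only the spread between these libraries.

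The citric acid cycle runs in the mitochondrial matrix. It joins acetyl-CoA to oxaloacetate to form citrate, oxidises it stepwise back to oxaloacetate, and passes the electrons to the respiratory chain as NADH and FADH2. In a fat cell that makes lipid, part of the citrate leaves the mitochondrion and is split in the cytosol into acetyl-CoA for fatty acid synthesis, and the cycle must then be refilled, mainly through pyruvate carboxylase. Citrate synthase (Cs) makes citrate. The NAD-dependent isocitrate dehydrogenase is built from a catalytic subunit (Idh3a), a second subunit that pairs with it (Idh3b) and a regulatory subunit (Idh3g). Ogdh is the decarboxylating subunit of the oxoglutarate dehydrogenase complex. Succinate-CoA ligase pairs a common subunit, Suclg1, with Sucla2, which makes ATP, or with Suclg2, which makes GTP. Fumarase (Fh1) hydrates fumarate to malate, and the mitochondrial malate dehydrogenase (Mdh2) regenerates oxaloacetate. The steps between Ogdh and Fh1 also use succinate dehydrogenase, which is a complex of the respiratory chain and is given below with the other genes of the cycle.

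The mouse genes lie, as deposited, at chr10:128173603-128198348 (Cs), chr9:54493618-54511945 (Idh3a), chr2:130121229-130126467 (Idh3b), chrX:72822569-72830503 (Idh3g), chr11:6241633-6306642 (Ogdh), chr6:73225365-73253894 (Suclg1), chr14:73762759-73833582 (Sucla2), chr1:175427940-175453201 (Fh1) and chr5:135807334-135819252 (Mdh2). Idh3b, Idh3g and Fh1 are on the minus strand and the others on the plus strand. The build of these coordinates is not settled: the submitters' processing notes name GRCm38, but 0 of the 9 starts matched the GENCODE vM21 annotation of that build. In the pig table, whose build is not settled either, the gene with the one called change, IDH3A, lies at chr7:47759439-47778956 on the minus strand. All 18 genes are protein-coding. Idh3b overlaps Nop56 on the other strand in both species, and IDH3G in the pig overlaps SSR4. The kit marks strand, but whether the counting used it is not stated, so reads of these pairs may be mixed.

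Promoters were taken from RefSeq for mouse build GRCm38.p6, where 8 of the 9 members matched, with 13 start sites. Idh3a, the member that rose most, was the one without an entry, so no motif was searched in its promoter. The 250 bases upstream of the start are shown for 5 of them: for Cs and Mdh2, which were among those that rose more than 2-fold with rosiglitazone in 3T3-L1 cells, for the ligase partners Suclg1 and Sucla2, and for the regulatory subunit Idh3g. Capitals mark a match to a searched motif.
Cs, chr10:128337477-128337726, plus strand: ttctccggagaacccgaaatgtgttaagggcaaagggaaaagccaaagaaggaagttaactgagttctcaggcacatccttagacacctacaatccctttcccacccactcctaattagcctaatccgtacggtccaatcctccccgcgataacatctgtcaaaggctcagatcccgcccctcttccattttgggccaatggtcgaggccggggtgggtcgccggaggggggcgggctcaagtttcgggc
Suclg1, chr6:73248255-73248504, plus strand: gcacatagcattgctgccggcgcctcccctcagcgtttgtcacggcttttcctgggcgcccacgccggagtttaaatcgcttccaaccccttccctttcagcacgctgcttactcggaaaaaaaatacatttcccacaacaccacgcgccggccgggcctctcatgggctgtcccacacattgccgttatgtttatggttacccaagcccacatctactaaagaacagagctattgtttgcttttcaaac
Sucla2, chr14:73552536-73552785, plus strand: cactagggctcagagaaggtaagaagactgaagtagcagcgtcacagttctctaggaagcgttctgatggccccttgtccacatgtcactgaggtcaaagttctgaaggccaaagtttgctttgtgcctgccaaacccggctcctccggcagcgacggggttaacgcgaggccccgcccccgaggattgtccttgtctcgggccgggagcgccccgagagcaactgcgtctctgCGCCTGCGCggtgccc
Mdh2, chr5:135778399-135778648, plus strand: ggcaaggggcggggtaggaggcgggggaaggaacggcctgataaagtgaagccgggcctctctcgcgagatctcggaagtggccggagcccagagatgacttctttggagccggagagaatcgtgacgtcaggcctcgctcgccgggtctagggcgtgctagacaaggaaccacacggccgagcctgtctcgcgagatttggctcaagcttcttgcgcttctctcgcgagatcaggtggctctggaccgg
Idh3g, chrX:73786898-73787147, minus strand: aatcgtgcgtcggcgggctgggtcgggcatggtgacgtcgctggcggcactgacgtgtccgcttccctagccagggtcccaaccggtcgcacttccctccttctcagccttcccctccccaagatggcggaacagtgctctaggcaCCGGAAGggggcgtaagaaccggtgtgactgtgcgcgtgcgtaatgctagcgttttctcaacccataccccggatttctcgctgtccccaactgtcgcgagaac
Motifs were searched on both strands in 300 bases, from 250 before to 50 after each start. The half-site of the estrogen-related receptors, TNAAGGTCA, was in 0 of the 8 members and in 1.28% of 32544 promoters. The PPAR-RXR element, a direct repeat of AGGTCA with 1 base between, was in 0 members and in 0.0399% of promoters. The NRF1 motif GCGCANGCG was in 2 members, Ogdh and Sucla2, and in 6.29% of promoters; in Sucla2 it begins 16 bases before the start, on the minus strand. The ETS motif CCGGAAG was in 2 members, Idh3b and Idh3g, and in 8.91% of promoters. The E-box CACGTG was in Ogdh alone among the members and in 7.17% of promoters. Members were counted by gene, with a match at any of its start sites, while the percentages count promoters. Of the 13 member promoters, 3 held the NRF1 motif, 2 the ETS motif and 3 the E-box. Many of the 13 belong to Ogdh, and 2 of those overlap, so the same NRF1 site and the same E-box were each counted in both. No match overlapped one of another motif. A match describes letters only, and an absence says nothing of a factor's binding.

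The values are the authors' normalized counts, counts divided by a size factor for each library. A gene's level is in those units. A difference is a log2 fold change on the log2(normalized count + 1) scale, given ± SE, from limma fitted to all 5 groups. Unless a replicate block is named, the fit ignores the pairing of 3T3-L1 libraries by replicate number that is given below. P-values were adjusted over all genes tested (15723 in 3T3-L1 and 14819 in DFAT), and a gene was called at an adjusted p under 0.05. Levels are not compared between genes, because transcript lengths were not used. Summed normalized counts per library came to between 26.2 and 28.4 M for 3T3-L1 and between 56.9 and 69.3 M for DFAT, and estimated depths to 22.8 to 30.7 M and 44.7 to 70.4 M reads. Fibroblast markers were abundant in both systems, but DLK1, a preadipocyte marker, was below 1 in every DFAT library. Summed macrophage markers lay between 675 and 1039 in DFAT libraries, with PTPRC, their defining leukocyte gene, below 1 in each. In 3T3-L1 libraries 4 of 6 such markers were listed, and Ptprc and Adgre1 were not analysed there. Epithelial markers summed to at most 5.96 in any 3T3-L1 library and 16.7 in any DFAT library, and endothelial markers to at most 29.5 and 239.

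In 3T3-L1 cells all 9 enzymes rose with rosiglitazone. The largest change was in Idh3a, 5.96-fold in mean level, followed by Cs (2.33-fold), Mdh2 (2.26-fold) and Suclg1 (2.23-fold). The smallest were in Idh3g (1.51-fold) and Sucla2 (1.52-fold). Limma called 9 of 9, where 40.1% of all genes tested were called, 3190 higher and 3122 lower. The median log2 fold change of the 9 was 0.90, against 0.00 over all genes. In all 9 the 3 rosiglitazone libraries lay above the 3 vehicle libraries, where 45.6% of all genes tested had no overlap between these groups in one direction or the other. Such a share is given for no other comparison, and overlap is only described there. All 9 calls held when any 1 library was left out. The libraries are of bulk RNA, so more cells of a type and more RNA per cell cannot be told apart.

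**Figure D1:**
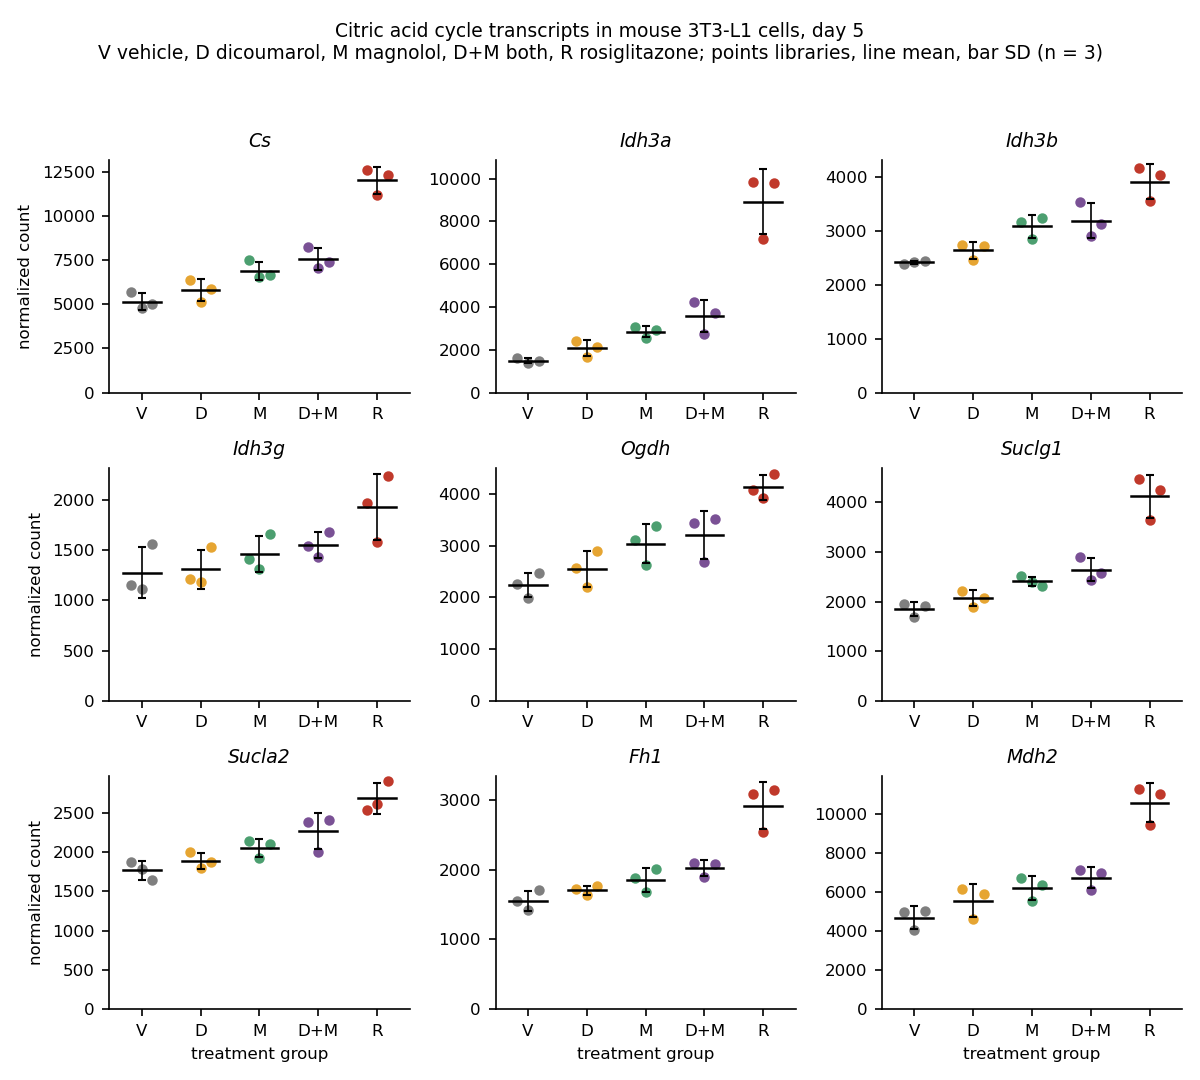
Normalized count (y axis, from 0) of each of the 9 genes in the 15 3T3-L1 libraries by treatment group (x axis). Points are libraries, the line is the mean and the bar the SD of 3. The group means climb from vehicle to dicoumarol, magnolol, the combination and rosiglitazone in every panel, with Idh3a moving from 1496 to 8912.

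Citrate synthase, the entry to the cycle, stood at 5688, 4782 and 4998 normalized counts in the 3 vehicle libraries of 3T3-L1. Dicoumarol libraries stood at 6382, 5154 and 5845, magnolol libraries at 7480, 6521 and 6662 and combination libraries at 8259, 7031 and 7420. With rosiglitazone Cs stood at 12622, 11172 and 12291. The magnolol, combination and rosiglitazone libraries all lay above every vehicle library, and those of dicoumarol overlapped them. Cs rose by 1.22 ± 0.10 with rosiglitazone (adjusted p = 4.32e-07, limma) and by 0.55 ± 0.10 with the combination (adjusted p = 0.00398). With magnolol its log2 fold change was 0.42 ± 0.10 (adjusted p = 0.0580, limma), and with the replicate block it was called (adjusted p = 5.12e-04, limma).

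Idh3a, the catalytic subunit of the NAD-dependent isocitrate dehydrogenase, moved most of the 9 in each comparison with vehicle. Its vehicle libraries held 1632, 1382 and 1475 normalized counts and its dicoumarol libraries 2428, 1676 and 2122. Magnolol gave 3079, 2564 and 2918, the combination 4232, 2760 and 3721 and rosiglitazone 9815, 7153 and 9768. Each of the 4 treated groups lay wholly above vehicle. Idh3a rose by 0.93 ± 0.16 with magnolol (adjusted p = 0.0113, limma), by 1.24 ± 0.16 with the combination (7.25e-04) and by 2.56 ± 0.16 with rosiglitazone (6.98e-08). Leaving out vehicle replicate 2 ended the magnolol call (adjusted p = 0.0570, limma), as did leaving out vehicle replicate 3 (0.0523), magnolol replicate 1 (0.0788) or magnolol replicate 3 (0.0574). With dicoumarol the log2 fold change was 0.46 ± 0.16 (adjusted p = 0.9998, limma). These values ignore the pairing of libraries. With the replicate block the adjusted p in limma was 2.16e-06 for magnolol and 0.0116 for dicoumarol.

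Idh3b and Idh3g, the other subunits of that enzyme, had smaller estimates than Idh3a. Idh3b held 2386, 2424 and 2440 normalized counts with vehicle, 3537, 2899 and 3123 with the combination and 4157, 3554 and 4026 with rosiglitazone. The libraries of both treatments lay above all vehicle libraries, and Idh3b rose by 0.39 ± 0.09 with the combination (adjusted p = 0.0191, limma) and by 0.69 ± 0.09 with rosiglitazone (2.74e-05). Idh3g held 1155, 1108 and 1562 with vehicle, 1535, 1426 and 1682 with the combination and 1969, 1577 and 2233 with rosiglitazone. Its vehicle replicate 3 lay inside the range of the combination. Idh3g rose by 0.60 ± 0.15 with rosiglitazone (adjusted p = 0.00522, limma), and its change with the combination was 0.29 ± 0.15 (adjusted p = 0.352). It was the one member not called for the combination without the replicate block, and with the block it was called (adjusted p = 0.0147, limma).

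The ratio of Idh3a to its partner subunits therefore shifted with treatment, which is a description of the same values. Relative to the vehicle mean, the mean log2 ratio of Idh3a to Idh3b was higher by 0.33 in the dicoumarol group, 0.58 in the magnolol group, 0.84 in the combination and 1.87 in the rosiglitazone group. The 3 libraries of each treated group lay above the 3 of vehicle. The ratio of Idh3b to Idh3g stayed within 0.14 of its vehicle mean in all groups, and every group overlapped vehicle. The ratio of Idh3a to Idh3g was higher by 1.96 with rosiglitazone. Counts were not divided by length, so a ratio itself says nothing of the amounts of the 2 subunits.

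**Figure D2:**
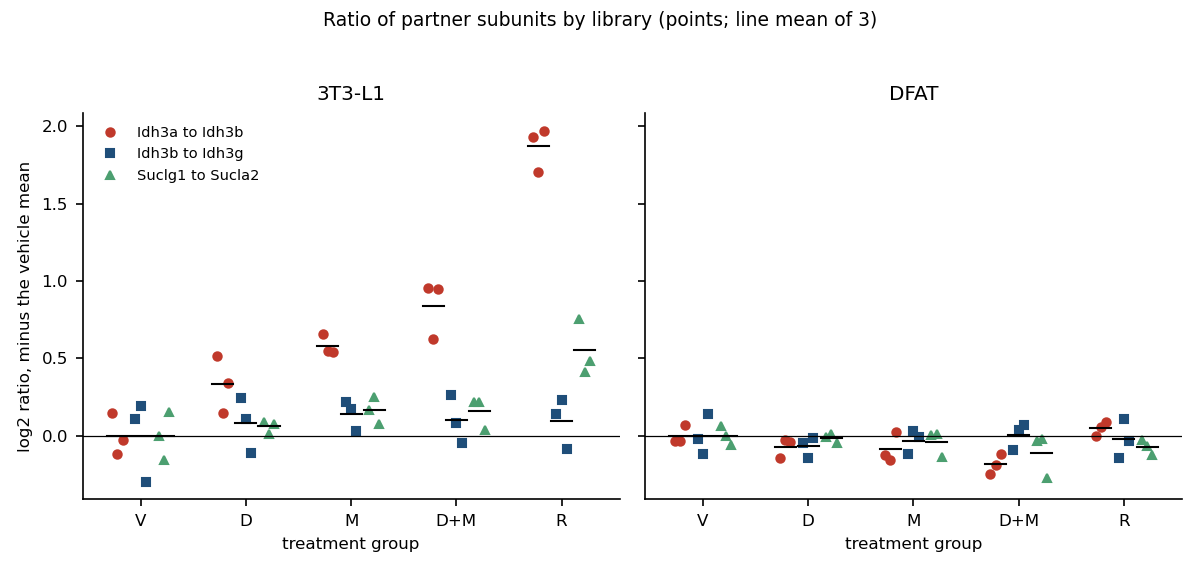
Log2 ratio of partner subunits in each library minus the vehicle mean of that ratio (y axis), by treatment group (x axis), in 3T3-L1 (left) and DFAT (right). Points are libraries and lines means of 3. The Idh3a to Idh3b ratio climbs to 1.87 with rosiglitazone in 3T3-L1, while in DFAT no group mean is more than 0.19 from vehicle.

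Ogdh, which feeds succinyl-CoA to the ligase, held 2255, 1996 and 2466 normalized counts with vehicle, 3118, 2625 and 3375 with magnolol, 3443, 2679 and 3515 with the combination and 4067, 3926 and 4387 with rosiglitazone. The magnolol, combination and rosiglitazone libraries lay above all vehicle libraries. Ogdh rose by 0.52 ± 0.13 with the combination (adjusted p = 0.0285, limma) and by 0.89 ± 0.13 with rosiglitazone (6.47e-05).

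Of the succinate-CoA ligase subunits, the common subunit Suclg1 rose further than the ATP-forming subunit Sucla2 in the point estimates. Suclg1 held 1956, 1679 and 1908 in the vehicle libraries, 2221, 1899 and 2064 with dicoumarol, 2506, 2395 and 2316 under magnolol, 2901, 2444 and 2584 for the combination and 4467, 3636 and 4254 under rosiglitazone, in normalized counts. Sucla2 held 1873, 1790 and 1639 in the vehicle libraries and 1999, 1802 and 1871 in those of dicoumarol. Its magnolol libraries held 2137, 1928 and 2102, its combination libraries 2384, 2007 and 2410 and its rosiglitazone libraries 2536, 2611 and 2907. For both genes all groups but dicoumarol lay wholly above vehicle. Suclg1 rose by 0.52 ± 0.10 with the combination (adjusted p = 0.00543, limma) and 1.15 ± 0.10 with rosiglitazone (5.75e-07). Sucla2 rose by 0.36 ± 0.09 (adjusted p = 0.0342, limma) and 0.60 ± 0.09 (1.01e-04). The mean log2 ratio of Suclg1 to Sucla2 was 0.06 ± 0.16 (SD, n = 3) with vehicle and 0.61 ± 0.18 with rosiglitazone, without overlap, whereas the ratio of the GTP-forming subunit Suclg2 to Sucla2 was 0.29 ± 0.14 and 0.38 ± 0.07, with overlap. The difference in change between the 2 subunits was not tested.

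Fumarase and malate dehydrogenase close the cycle. Fh1 held 1548, 1415 and 1702 normalized counts with vehicle, 2095, 1886 and 2073 with the combination and 3080, 2535 and 3137 with rosiglitazone. Both treated groups lay above all vehicle libraries. It rose by 0.38 ± 0.10 with the combination (adjusted p = 0.0401, limma) and by 0.90 ± 0.10 with rosiglitazone (5.84e-06). Mdh2 held 4988, 4033 and 5052 with vehicle and 6175, 4612 and 5894 with dicoumarol, which overlapped. The magnolol libraries held 6743, 5550 and 6371, those of the combination 7120, 6115 and 6991 and those of rosiglitazone 11268, 9442 and 11037, all above vehicle. Mdh2 rose by 0.53 ± 0.13 with the combination (adjusted p = 0.0221, limma) and by 1.18 ± 0.13 with rosiglitazone (3.81e-06).

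Of the other treatments in 3T3-L1 cells, limma called for the combination 8 of the 9 enzymes, all higher, where 5.22% of all genes were called. For magnolol alone it called 1, Idh3a, where 1.23% of genes were called. For dicoumarol alone it called 0 of 9, where 0% of genes were called. The median log2 fold change of the 9 was 0.16 for dicoumarol, 0.38 for magnolol and 0.52 for the combination, against −0.01 to 0.00 over all genes. Without adjustment, 1 member (Idh3a), 8 and 8 had a p under 0.05 in limma. Over all 15723 genes, 393 had such a p for dicoumarol and 1579 for magnolol, and the combination had more such genes than either. All 9 group means stood in the order vehicle, dicoumarol, magnolol, combination, rosiglitazone. Neighbours in that order were mostly not separated: limma called 0 of 9 for dicoumarol against vehicle, for magnolol against dicoumarol and for the combination against magnolol. The comparisons with vehicle share its 3 libraries.

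In the fit that ignores the pairing of libraries given below, the combination's count fell when some single libraries were left out. No library was left out of the fit that uses the pairing. The calls of Cs, Idh3a and Suclg1 held in each alternative and without any 1 library. The count was 3 without combination replicate 1 or 3, 4 without vehicle replicate 2, 5 without vehicle replicate 1 and 6 without vehicle replicate 3. Without combination replicate 1 the adjusted p in limma was 0.136 for Idh3b, 0.154 for Ogdh, 0.175 for Sucla2, 0.179 for Fh1 and 0.120 for Mdh2. Without combination replicate 3 these were 0.0516, 0.117, 0.134, 0.123 and 0.0788. Of these 5, vehicle replicate 1 was needed for Idh3b (0.0604 without it), Ogdh (0.0689) and Fh1 (0.0975), vehicle replicate 2 for Ogdh (0.112), Sucla2 (0.0703), Fh1 (0.143) and Mdh2 (0.0963), and vehicle replicate 3 for Idh3b (0.0511) and Sucla2 (0.130).

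In 3T3-L1 the replicate numbers of the labels pair the libraries: libraries with one number deviate together across groups. A limma fit with the number as a block raised the counts. It called 9 of 9 for the combination (13.5% of all genes called), 7 for magnolol (4.96%) and 1, Idh3a, for dicoumarol (0.502%). The adjusted p of Idh3a with dicoumarol was then 0.0116 and that of Idh3g with the combination 0.0147. The 2 not called for magnolol in that fit were Idh3g and Sucla2.

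Direct comparisons of the treated groups asked whether one treatment exceeded another. Rosiglitazone stood above the combination for 6 of the 9, where 18.3% of genes were called: Cs (0.67 ± 0.10, adjusted p = 9.90e-04, limma), Idh3a (1.33 ± 0.16), Idh3b (0.30 ± 0.09), Suclg1 (0.64 ± 0.10), Fh1 (0.53 ± 0.10) and Mdh2 (0.65 ± 0.13). For Idh3g, Ogdh and Sucla2 the difference was 0.30 ± 0.15, 0.37 ± 0.13 and 0.25 ± 0.09, with adjusted p of 0.168, 0.0559 and 0.0731 in limma. With the replicate block all 9 were called, where 33.3% of genes were. The Idh3b call was lost without combination replicate 2 (adjusted p = 0.132, limma), combination replicate 3 (0.0953), rosiglitazone replicate 1 (0.139) or rosiglitazone replicate 3 (0.0907), and Idh3g was called without rosiglitazone replicate 2 (0.0487). The Idh3b call was also lost with no filter on low genes (0.0519), with no variance trend (0.0563) and with only the compared groups (0.108), and Sucla2 was called with quantile normalization (0.0494).

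For the combination against dicoumarol limma called 0 of 9, where 0.0254% of genes were called, and against magnolol 0 of 9, where 0% were. The first comparison had 8 members with an unadjusted p under 0.05, among 1273 such genes, and a median log2 fold change of 0.29. The second had 0 such members, among 336 such genes, and a median of 0.13. With the replicate block the count against dicoumarol was 7, all but Idh3g and Sucla2, where 3.62% of genes were called, and against magnolol it was still 0. Without combination replicate 2 and without the block, 1 member, Idh3a, was called against dicoumarol. Magnolol against dicoumarol called 0 of 9, where 0% of genes were called, with 4 members and 693 genes under an unadjusted p of 0.05, and 1 of 9 with the block, Idh3a at 0.47 (adjusted p = 0.0117, limma), where 0.502% were. The interaction of dicoumarol and magnolol, which asks whether the combination departs from the sum of both log2 changes, called 0 of 9, where 0% of genes were called, and 0 of 9 had an unadjusted p under 0.05, among 78 such genes. The interaction estimates lay between −0.15 and 0.04, with 95% intervals reaching from −0.65 to 0.50 over the 9 in the fit without the block. With the block the interaction still called 0 of 9, where 0% of genes were called, and the largest SE was 0.112 (Idh3a).

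In DFAT cells the same 9 enzymes moved little. Limma called 0 of 9 for rosiglitazone, where 10.8% of genes were called, and 0 for dicoumarol and for magnolol, where 1.94% and 4.22% were. For the combination 1 of 9 was called, where 10.2% were: IDH3A, which fell. Without adjustment, IDH3A with magnolol and with the combination was the one member with a p under 0.05 in a comparison with vehicle. Over all 14819 genes 1504 had such a p for dicoumarol, 2476 for magnolol, 3642 for the combination and 3225 for rosiglitazone. The median log2 fold change of the 9 was −0.02 for rosiglitazone, −0.01 for dicoumarol, −0.08 for magnolol and −0.05 for the combination, against −0.01 to 0.00 over all genes. The rosiglitazone estimates ran from −0.09 (SUCLG1) to 0.11 (CS), and the 95% intervals of the 9 together reached from −0.24 to 0.24. Over all 4 treatments those intervals reached from −0.36 to 0.24.

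**Figure D3:**
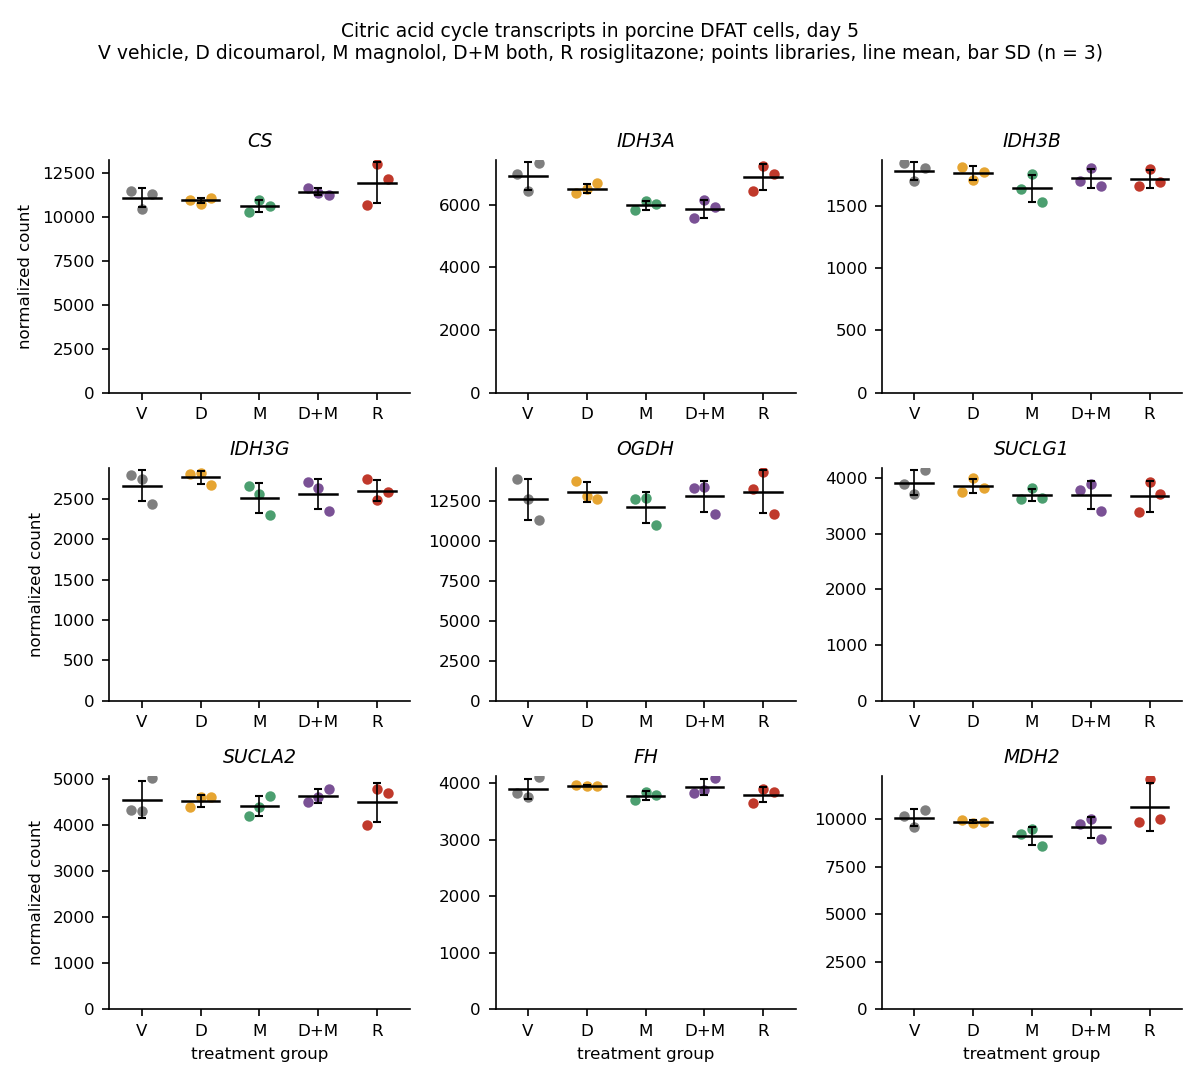
Normalized count (y axis, from 0) of each of the 9 genes in the 15 DFAT libraries by treatment group (x axis). Points are libraries, the line is the mean and the bar the SD of 3. All groups overlap vehicle except magnolol for IDH3A and MDH2 and the combination for IDH3A, where the combination mean is 5876 against 6918. The share of all DFAT genes without overlap is not given.

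IDH3A held 6986, 6450 and 7320 normalized counts with vehicle and 6371, 6508 and 6681 with dicoumarol. It held 5825, 6110 and 6027 with magnolol, 5571, 6139 and 5919 with the combination and 6437, 7245 and 6973 with rosiglitazone. The magnolol and combination libraries lay below all 3 vehicle libraries, and the rosiglitazone libraries overlapped them. IDH3A fell with the combination by a log2 fold change of −0.23 ± 0.06 (adjusted p = 0.0197, limma), which is 0.849 of the vehicle mean. It was no longer called without vehicle replicate 1 (0.0692), without vehicle replicate 3 (0.0862) or without combination replicate 1 (0.0983). With magnolol the change was −0.21 ± 0.06 (adjusted p = 0.0695, limma), which was called without vehicle replicate 2 (0.0357). IDH3A was higher with rosiglitazone than with the combination by 0.23 ± 0.06 (adjusted p = 0.0155, limma), the 1 call of 9 in that comparison, where 17.0% of genes were called. Leaving out combination replicate 1 (0.0803), rosiglitazone replicate 2 (0.0556) or rosiglitazone replicate 3 (0.0508) ended it. IDH3A overlaps ACSBG1 on the other strand, whose mean was 242 normalized counts.

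The other DFAT members stayed near their vehicle level. CS held 11486, 10490 and 11358 normalized counts with vehicle and 10725, 13046 and 12170 with rosiglitazone, a log2 fold change of 0.11 ± 0.06 (adjusted p = 0.393, limma). MDH2 held 10192, 9587 and 10499 with vehicle, 9245, 9511 and 8592 with magnolol and 9848, 12109 and 9994 with rosiglitazone. Its rosiglitazone replicate 2 was the highest of the 15 libraries. SUCLG1 held 3889, 3700 and 4141 with vehicle and 3378, 3926 and 3700 with rosiglitazone, while SUCLA2 held 4325, 4304 and 5012 with vehicle against 3997, 4779 and 4692. OGDH held 13865, 12660 and 11333 with vehicle against 13259, 14336 and 11701 with rosiglitazone. In these 3 genes the rosiglitazone libraries overlapped those of vehicle. Group means of IDH3B lay between 1638 and 1779, of IDH3G between 2508 and 2766 and of FH between 3780 and 3952. The group means had no order shared by the 9 genes, although magnolol had the lowest mean in 7 of them. All 9 estimates were below 0 for magnolol against vehicle (−0.21 to −0.04) and for magnolol against dicoumarol (−0.14 to −0.04). Without the replicate block, neither comparison called a member, and both share the magnolol libraries. Limma called 0 of 9 for the combination against dicoumarol (2.35% of genes called), the combination against magnolol (0.621%), magnolol against dicoumarol (1.57%) and the interaction (0.0810%). Members with an unadjusted p under 0.05 numbered 1, 0, 0 and 0, among 1882, 989, 1517 and 582 such genes.

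Differences between the systems were tested per gene, as the DFAT log2 fold change minus that of 3T3-L1, over 9370 genes with a matching symbol. For rosiglitazone 9 of 9 differed, where 38.8% of genes did, all with the smaller change in DFAT. The difference was −2.57 for IDH3A, −1.25 for SUCLG1, −1.12 for CS and −1.10 for MDH2, and smallest for SUCLA2 at −0.62. For the combination 7 of 9 differed, all but IDH3G and SUCLA2, where 11.7% of genes did, with −1.47 for IDH3A. For magnolol 5 differed, CS, IDH3A, IDH3B, SUCLG1 and MDH2, where 3.23% did. For dicoumarol 0 differed, where 0.149% did, and 1 member, IDH3A, had an unadjusted p under 0.05, among 511 such genes. With the replicate block in both fits 8 differed for magnolol, all but SUCLA2, where 10.7% of genes did, and 9 for the combination, where 22.8% did. For dicoumarol that fit gave 1, IDH3A, where 1.91% did. The rosiglitazone calls held without any 1 library of either system. The magnolol count was 1 without 3T3-L1 magnolol replicate 1 or 3 and 2 without 3T3-L1 vehicle replicate 2, and the combination's was 4 without 3T3-L1 combination replicate 1. Species, cell origin and induction mix differ together between the systems and cannot be told apart.

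**Figure D4:**
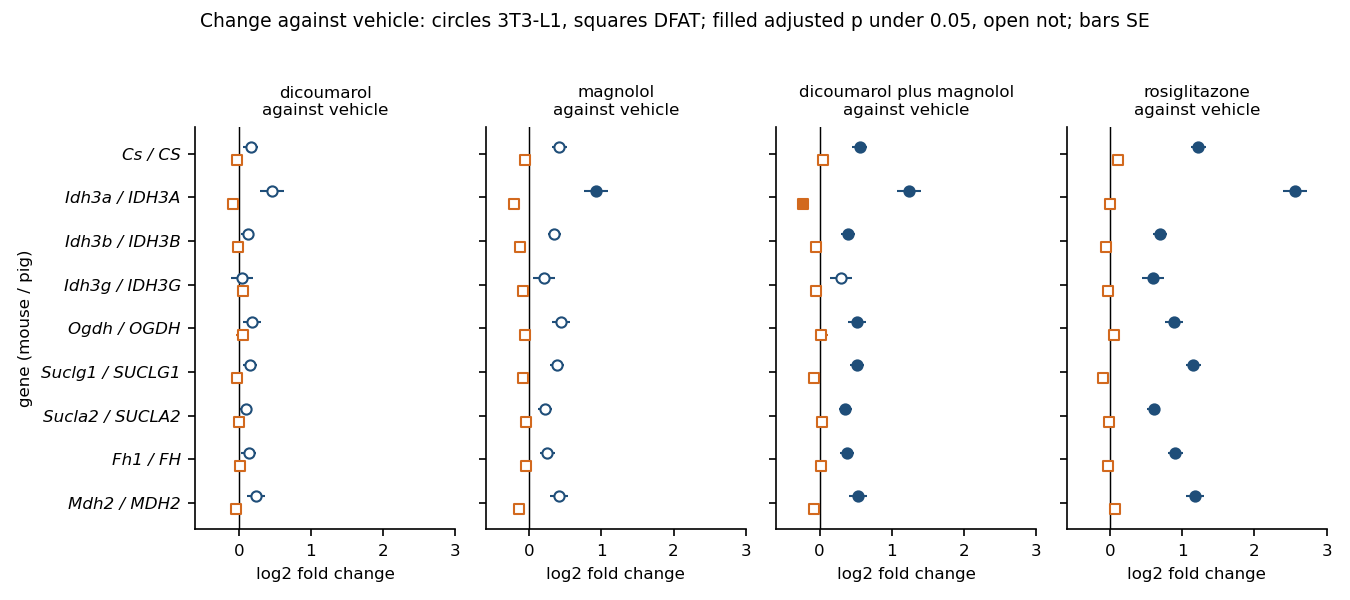
Log2 fold change against vehicle (x axis) of the 9 genes (y axis) for the 4 treatments (panels). Circles are 3T3-L1 and squares DFAT, filled where limma's adjusted p was under 0.05 without the replicate block, and bars are SE. In 3T3-L1 the circles move right from dicoumarol to rosiglitazone, up to 2.56 for Idh3a, while the DFAT squares lie between −0.23 and 0.11.

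The rise of fat cell markers was seen in both systems and is given beside these results. Counts called in this list and those below stand beside the shares of all genes called in either direction. Both the counts and the shares come from the fit without the replicate block. In 3T3-L1 these shares were 40.1% for rosiglitazone, 5.22% for the combination, 1.23% for magnolol and 0% for dicoumarol. For DFAT they were 10.8%, 10.2%, 4.22% and 1.94% in that order. The 10 adipocyte markers were all called higher with rosiglitazone in 3T3-L1 (median log2 fold change 3.95) and in DFAT (3.06). With the combination 10 of 10 were called in 3T3-L1 (median 2.57) and 9 of 10 in DFAT (2.32), with magnolol 7 (2.09) and 8 (1.35), and with dicoumarol 0 (1.17) and 6 (0.81). Adipoq, the fat cell hormone adiponectin, went from 453 ± 310 to 13829 ± 6450 normalized counts (SD, n = 3) with rosiglitazone in 3T3-L1, and from 28.3 ± 12.0 to 3980 ± 643 in DFAT. Summed adipocyte markers ran from 46948 to 65781 per vehicle library and 340717 to 592184 per rosiglitazone library in 3T3-L1, and from 24610 to 26371 and 87105 to 93930 in DFAT. Fibroblast markers summed to 237081 to 262258 with vehicle and 138390 to 180096 with rosiglitazone in 3T3-L1, where 7 of 8 were called lower. In DFAT they summed to 1581910 to 1734160 and 1233590 to 1371930, with 1 of 5 tested, PDGFRA, called lower. They stood higher with the other treatments: at 2218800 to 2315940 in dicoumarol libraries, 2529970 to 2898120 in magnolol libraries and 2521490 to 2997210 in combination libraries, where COL1A1 and COL3A1 were called higher and PDGFRA lower. Skeletal muscle markers in DFAT summed to 134 to 154 per vehicle library and 258 to 311 per combination library, and both of those tested were called higher with the combination, DES (1.81 ± 0.38, adjusted p = 0.00463, limma) and ACTA1 (0.59 ± 0.17, adjusted p = 0.0331). The ACTA1 call was lost without vehicle replicate 3 or combination replicate 2 or 3. Macrophage markers in 3T3-L1 summed to 234 to 269 per vehicle library and 123 to 171 per rosiglitazone library, with 1 of 3 tested, Cd14, called lower (−1.32 ± 0.14, adjusted p = 3.08e-06, limma). The part of these shifts in the enzyme levels was not tested.

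**Figure D5:**
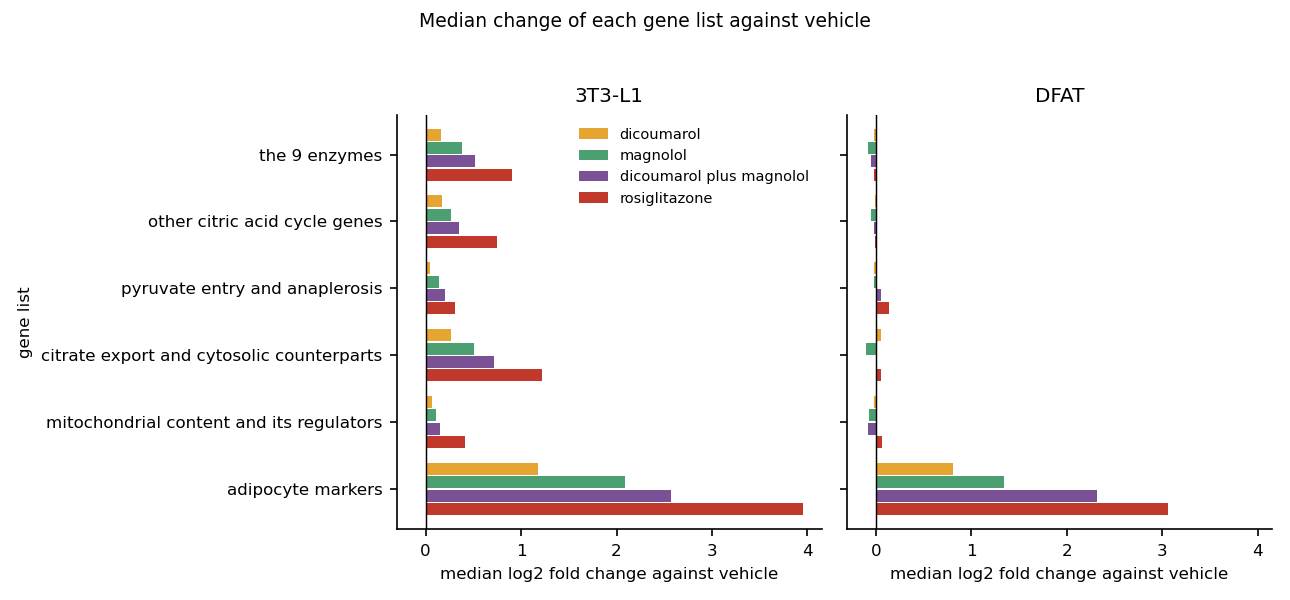
Median log2 fold change against vehicle (x axis) of the 9 enzymes and of 5 gene lists (y axis), with 1 bar per treatment, in 3T3-L1 (left) and DFAT (right). The adipocyte markers reach 3.95 and 3.06 with rosiglitazone, while the 9 enzymes reach 0.90 in 3T3-L1 and −0.02 in DFAT.

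A list of 10 other genes of the cycle, among them Idh2, Dlst, Dld, the succinate dehydrogenase subunits and the Ogdh relative Ogdhl, mostly rose as well in 3T3-L1. With rosiglitazone 8 of 10 were called higher and 2 lower, with a median of 0.75. The largest rises were in Dld, the lipoamide dehydrogenase shared by several complexes (1.12 ± 0.10, adjusted p = 9.70e-07, limma), and in the succinate dehydrogenase subunits Sdhd (0.88 ± 0.13) and Sdhc (0.85 ± 0.11). With the combination 5 of 10 were called higher, among them Dld (0.66 ± 0.10) and Dlst (0.44 ± 0.09), and with magnolol 1, Dld (0.45 ± 0.10, adjusted p = 0.0424, limma). That magnolol call was lost when any 1 of the 6 libraries was left out (0.0601 to 0.209). The combination's call of Dlst was lost without vehicle replicate 3 or combination replicate 1. Dicoumarol called 0.

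The 2 that fell with rosiglitazone were Idh2 and Ogdhl. Idh2 falls outside the naming rule and was singled out after its value was seen. Idh2, the NADP-dependent mitochondrial isocitrate dehydrogenase, was at 12021 ± 1877 normalized counts (SD, n = 3) with vehicle and 8818 ± 1124 with rosiglitazone, a change of −0.44 ± 0.14 (adjusted p = 0.0165, limma), while the NAD-dependent Idh3a rose. The Idh2 call was lost without vehicle replicate 3 (0.0842) or rosiglitazone replicate 1 (0.0841). Ogdhl was at 462 ± 5.75 and 277 ± 56.9, a change of −0.76 ± 0.15 (adjusted p = 0.000734, limma), and was lower with rosiglitazone than with the combination by a log2 fold change of −0.72 ± 0.15 (adjusted p = 0.00475). In DFAT the one gene of this list called was IDH2, which went the other way: 2351 ± 150 with vehicle, 3204 ± 244 with the combination (0.45 ± 0.09, adjusted p = 0.00321, limma) and 2956 ± 447 with rosiglitazone (0.32 ± 0.09, adjusted p = 0.0270). The rosiglitazone call of IDH2 needed vehicle replicate 2 (adjusted p = 0.121 in limma without it), vehicle replicate 3 (0.0626), rosiglitazone replicate 1 (0.0542) and rosiglitazone replicate 2 (0.102). The difference between the systems in IDH2 was 0.77 ± 0.16 for rosiglitazone (adjusted p = 0.000521, from the 2 limma fits over the matched genes) and 0.65 ± 0.16 for the combination (0.00840).

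Genes that feed the cycle from pyruvate or refill it were mostly called in 3T3-L1 with rosiglitazone. Of 19 tested, 12 were called higher and 3 lower (Pdk1, Pdp1 and Me3) with rosiglitazone, 6 higher with the combination, 2 higher with magnolol and 0 with dicoumarol. Pcx, the pyruvate carboxylase that makes oxaloacetate, went from 5518 ± 260 normalized counts (SD, n = 3) with vehicle to 11913 ± 704 with magnolol (1.11 ± 0.12, adjusted p = 0.00105, limma), 14087 ± 2439 with the combination (1.34 ± 0.12) and 19779 ± 634 with rosiglitazone (1.84 ± 0.12). The pyruvate dehydrogenase subunit Pdhb rose by 1.66 ± 0.13 with rosiglitazone and the mitochondrial pyruvate carrier Mpc1 by 1.52 ± 0.12. Pdhx, the binding protein of that complex, was the other gene called with magnolol (0.58 ± 0.10, adjusted p = 0.0113, limma), a call lost without vehicle replicate 3 or magnolol replicate 1 or 3. In DFAT, 18 of these genes were listed and tested, of which 5 were called higher and 1 lower with rosiglitazone, 3 higher with the combination and 1 higher with each single compound. The 1 with each single compound was PCK2, the mitochondrial PEP carboxykinase, at 0.28 ± 0.07 for dicoumarol, 0.37 ± 0.07 for magnolol and 0.72 ± 0.07 for rosiglitazone. Its dicoumarol call was lost when any 1 of the 6 libraries was left out. The 3 with the combination were PCK2, PDK4 and MPC2. The 1 lower with rosiglitazone, named after its value was seen, was PC, the pig form of Pcx, at 5776 ± 956 normalized counts (SD, n = 3) with vehicle and 3930 ± 518 with rosiglitazone (−0.55 ± 0.13, adjusted p = 0.00699, limma). This call was lost without vehicle replicate 1 (0.0503), and its difference from the mouse gene was not tested. PDK4, a kinase that inhibits pyruvate dehydrogenase, rose by 2.09 ± 0.35 with rosiglitazone from a low level, 13.5 ± 3.11 to 60.1 ± 8.84.

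Genes for citrate export and the cytosolic counterparts were tested in the same way. In 3T3-L1, 8 of 9 were called higher with rosiglitazone, 5 with the combination and 3 with magnolol, led by the dicarboxylate carrier Slc25a10 (2.08 ± 0.19 with rosiglitazone), the cytosolic malate dehydrogenase Mdh1 (1.93 ± 0.13) and the cytosolic aconitase Aco1 (1.65 ± 0.13). These were also the 3 called with magnolol, at 1.08 ± 0.19, 0.59 ± 0.13 and 0.68 ± 0.13. The magnolol call of Mdh1 was lost when any 1 of the 6 libraries was left out, that of Slc25a10 without vehicle replicate 2 or magnolol replicate 1 or 3, and that of Aco1 without any 1 of these or vehicle replicate 3. In DFAT, 3 of 9 were called higher with rosiglitazone, IDH1 (0.73 ± 0.05), ACO1 (0.36 ± 0.06) and MDH1 (0.23 ± 0.06), 1 with the combination, IDH1, and 0 with the single compounds. The MDH1 call was lost without vehicle replicate 1 or 2 or rosiglitazone replicate 2 or 3. Of 17 genes for mitochondrial content and its regulators, 12 were called higher with rosiglitazone in 3T3-L1, 4 with the combination and 1 with magnolol. That 1 was the coactivator Ppargc1b, whose magnolol change of 1.61 ± 0.26 was not called without magnolol replicate 1. It rose by 3.32 ± 0.26 with rosiglitazone, from 45.3 ± 8.81 to 478 ± 175 normalized counts. Of the 14 tested in DFAT 1 was called higher with rosiglitazone, the coactivator PPARGC1A (4.32 ± 0.54), at 3.33 ± 3.03 with vehicle and 64.9 ± 8.32 with rosiglitazone. It was also the 1 called higher with the combination (2.70 ± 0.54, adjusted p = 0.00313, limma). HSPE1, a mitochondrial chaperonin, was called lower with magnolol (−0.27 ± 0.07) and, with GABPA, with the combination, and each of these calls was lost without vehicle replicate 1 or 3 or any 1 treated library.

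The 9 enzymes were also compared by how they varied together. Over the 36 pairs of members, the Pearson correlation of log2 levels across the 15 libraries had a median of 0.94 in 3T3-L1, with a range of 0.75 to 0.99, and of 0.38 in DFAT, with a range of −0.62 to 0.82. After the group means were taken out the medians were 0.71 and 0.54. These describe libraries that share treatment groups and carry no test. Among 10288 3T3-L1 genes with a mean of at least 100, the 5 most like the mean of the 9 were Acat2 (r = 0.99), Slc25a5 (0.99), Acadvl (0.99), Rmdn3 (0.99) and Bckdhb (0.99). Acadvl is a fatty acid oxidation enzyme, Bckdhb a subunit of the branched-chain ketoacid dehydrogenase, Slc25a5 an ADP/ATP carrier and Acat2 a thiolase. Among 9867 DFAT genes they were RRAGA (0.92), CCT7 (0.90), XPO5 (0.90), FBXW8 (0.89) and ATP6V1A (0.88), whose changes against vehicle lay between −0.15 and 0.03.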

How the data were processed

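Poly(A) RNA was sequenced from stranded libraries. The deposited values are a signal, read counts that the authors divided by DESeq2 size factors, per the labels, in 1 table per species. The submitters' processing notes also name bcl2fastq 2.19.1.403, STAR and the build GRCm38, for the pig samples too. Whole reads were not recovered (81.93 to 83.85% of low values in mouse and 89.75 to 91.01% in pig were within 0.02 of a whole read), so no count test was run. Limma 3.58.1 (R 4.3.3) was fitted to log2(value + 1) for all 5 groups of a system, keeping genes whose mean reached 10, with a variance trend and moderated two-sided tests, and Benjamini-Hochberg adjustment over all genes tested. For the differences between systems, genes were matched by symbol and the SEs of both fits combined, with Satterthwaite degrees of freedom.

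Replicate numbers come from the labels. In 3T3-L1, all 30 same-numbered pairs of libraries in different groups had a correlation of deviations from the group means over 0.1 (lowest 0.106, median 0.300, against −0.142 for different numbers), so the numbers pair those libraries. Blocked counts are given for the members, some of them in a later paragraph than the unblocked values. The lists of other genes have no blocked values. The alternatives were a pseudocount of 5, no filter, no variance trend, only the compared groups, quantile normalization, the block and leaving out each library. The scripts were tested on simulated data with 200 changed genes. False calls numbered 3 of 128 for 3T3-L1, 10 of 169 for DFAT and 16 of 187 for the difference between systems. All 9 members are named, and of each list up to 3 called genes with the largest change per comparison, except 1 list gene that is not reported here by name. The members and lists were chosen with earlier results of these data known. Python 3.11.15, numpy 2.4.6, pandas 2.3.3 and matplotlib 3.10.9 were used for tables and figures.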

Additional observations from a re-analysis of the deposited data

Results flagged for a closer look

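The change against vehicle differed between the 2 systems for 21 combinations of enzyme and treatment, each by a test of the DFAT log2 fold change minus that of 3T3-L1 (root-sum-square SE of the 2 limma fits, adjusted over 9370 genes). For rosiglitazone the difference was −1.12 for CS, −0.94 for FH, −2.57 for IDH3A, −0.75 for IDH3B, −0.63 for IDH3G, −1.10 for MDH2, −0.83 for OGDH, −0.62 for SUCLA2 and −1.25 for SUCLG1. That of IDH3A had an SE of 0.175 and an adjusted p of 1.30e-09 from the limma fits. For the combination it was −0.51 for CS, −0.36 for FH, −1.47 for IDH3A, −0.44 for IDH3B, −0.60 for MDH2, −0.49 for OGDH and −0.60 for SUCLG1, with an adjusted p of 1.86e-05 for IDH3A. For magnolol it was −0.48 for CS, −1.14 for IDH3A, −0.47 for IDH3B, −0.56 for MDH2 and −0.47 for SUCLG1, with an adjusted p of 8.98e-04 for IDH3A. All 21 differences have the same sign, and the comparisons share the vehicle libraries of each system. With 3 libraries a group, no group was tested for a library far from the others.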

How the results depend on the processing

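The 9 rosiglitazone calls in 3T3-L1 and the 9 differences between the systems for rosiglitazone held under each alternative run: a pseudocount of 5, no filter on low genes, no variance trend, only the compared groups, quantile normalization, the replicate block and each library left out. The alternatives that left out libraries for the differences between systems were added after the data were seen. With the replicate block, the 3T3-L1 counts were 1 for dicoumarol against vehicle, 7 for magnolol against vehicle, 7 for the combination against dicoumarol and 1 for magnolol against dicoumarol, and the counts of differing members were 1 for dicoumarol, 8 for magnolol and 9 for the combination. In 3T3-L1 the combination's count was 4 without a variance trend, 5 with only the compared groups, and 7 with no filter on low genes or with quantile normalization, where Fh1 was lost (adjusted p = 0.0573 and 0.0704, limma). In DFAT 1 member was called for magnolol with quantile normalization and 1 with the block, IDH3A in both, and with only the compared groups 0 were called for the combination against vehicle and 0 for rosiglitazone against the combination. The magnolol count of differing members was 2 without a variance trend. Leaving out 1 library gave counts in 3T3-L1 of 0 to 1 for magnolol, 3 to 8 for the combination, 0 to 1 for the combination against dicoumarol and 5 to 7 for rosiglitazone against the combination. In DFAT it gave 0 to 1 for magnolol, for the combination and for rosiglitazone against the combination. For the differences between systems it gave 1 to 5 for magnolol and 4 to 8 for the combination.

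The DFAT replicate numbers were not taken as pairs: 16 of 30 same-numbered pairs of libraries had a correlation of deviations over 0.1 (lowest −0.306, median 0.112). Among pairs with different numbers 4 of 60 did (median −0.065). Whether some of the DFAT libraries are paired was not tested. The block there changed no call of a member other than IDH3A with magnolol, and raised the genes called for rosiglitazone from 1604 to 2368. Estimates near 0 changed sign in 37 single-gene alternatives, in all of which the adjusted p was at least 0.691 in limma. With quantile normalization the DFAT log2 fold change was 0.022 for SUCLA2 with dicoumarol and 0.0018 for IDH3A with rosiglitazone. Leaving out 1 library, the log2 fold change with dicoumarol in 3T3-L1 ran from -0.0755 to 0.199 for Idh3g. In DFAT it ran with dicoumarol from -0.0597 to 0.00564 for CS, -0.0470 to 0.0118 for IDH3B, -0.00506 to 0.0931 for IDH3G, -0.0194 to 0.126 for OGDH, -0.0596 to 0.0216 for SUCLG1, -0.0409 to 0.0690 for SUCLA2 and -0.00419 to 0.0603 for FH, with magnolol from -0.132 to 0.0134 for OGDH and -0.0809 to 0.0290 for SUCLA2, with the combination from -0.117 to 0.00512 for IDH3G, -0.0527 to 0.0927 for OGDH, -0.0114 to 0.0985 for SUCLA2 and -0.0155 to 0.0518 for FH, and with rosiglitazone from -0.0564 to 0.0408 for IDH3A, -0.0934 to 0.00480 for IDH3G, -0.0214 to 0.133 for OGDH, -0.0667 to 0.0621 for SUCLA2, -0.0625 to 0.00194 for FH and -0.0238 to 0.125 for MDH2. The cause of these changes was not tested. The median SE over all genes, 0.146 in 3T3-L1 and 0.0992 in DFAT, limits what 3 libraries a group can show. For rosiglitazone against vehicle in simulated data, 29.4% of 1.5-fold changes were recovered in 3T3-L1 and 60.4% in DFAT. The simulation changed far fewer genes than were called with rosiglitazone in either system, so the share recovered in the data may differ.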
